A study of Mus musculus with 6 samples.

Results

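Col1a1, Col1a2, Col3a1, Col6a1, Fn1, Lum, Dcn and Postn encode collagen chains, fibronectin and other matrix proteins that fibroblasts secrete, among them the fibroblasts of the meninges, the membranes around the brain. These 8 genes were taken by name from the 42396 genes of each count table, and all 8 were found, each as a single entry with no copy on an alternate sequence. RNA was sequenced from primary cultures of the ventral midbrain, where dopamine neurons that control movement arise, made from wild-type (WT) mouse embryos at embryonic day 14. Every well received 150000 cells and, on the day of plating, a lentivirus at a multiplicity of infection of 5. In the 3 knockdown libraries the virus carried pll3.7-shRmstI, a hairpin RNA that targets the circular transcript circRmst, whose host gene is Rmst. In the 3 control libraries it carried pll3.7-Scr2, a scramble hairpin, so both groups share the virus, the genotype and the time in culture. RNA was taken after 3 days in vitro, with 2 to 3 wells harvested for each condition. The labels state 3 independent cultures but not which libraries came from the same one. The study asks what lowering circRmst does to neuron shape, migration and gene expression.

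Fibrillar collagens are the rope-like proteins of connective tissue: collagen I is built from the chains of Col1a1 and Col1a2, and collagen III from the chain of Col3a1 alone. Fibronectin, the product of Fn1, is a dimeric glycoprotein that cells assemble into fibrils through integrins, and collagen deposition depends on it. Collagen VI, periostin (Postn) and the small leucine-rich proteoglycans decorin (Dcn) and lumican (Lum) attach to these fibrils and shape their spacing and crosslinking. In the embryonic brain the collagens are made mainly in the meninges and along vessels, while fibronectin is also made by endothelial and other cells.

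The counts assigned to genes summed to between 35256611 and 43646521 in the knockdown libraries, and between 27248934 and 41982557 in the control libraries. Rmst, the host gene of the target, was at 106 ± 9.02 CPM in the knockdown and 118 ± 4.85 CPM in the control (SD, n = 3 each). CPM are counts relative to the library total, here scaled by TMM, a correction for differences in library composition. The log2 fold change of Rmst, knockdown over control, was -0.16 with an SE of 0.10, and it did not pass edgeR's test at an adjusted p of 1.00. Since a count per gene sums the linear and the circular RNA of Rmst, it does not check the knockdown, and circRmst itself was not analysed here. Rmst lies on chromosome 10 (GRCm38) from 92081746 to 92165178. Dcn starts 5.31 Mb beyond it on the same chromosome, Lum 5.40 Mb beyond it, and Col6a1 lies 15.4 Mb before it.

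Promoter sequences are shown for Col1a2 and Col3a1, the 2 collagen genes of the set with the highest levels per length. Each run is 300 bases from RefSeq (GRCm38.p6), plus strand, from 250 bases before the transcript start to 50 bases from it on. Capitals mark 3 motifs found on either strand: the CCAAT box (CCAAT), the TATA box (TATAAA) and the Sp1 box (GGGCGG), none of which overlap here. Col1a2 spans chr6:4505368-4505667, and Col3a1 spans chr1:45311288-45311587.
Col1a2: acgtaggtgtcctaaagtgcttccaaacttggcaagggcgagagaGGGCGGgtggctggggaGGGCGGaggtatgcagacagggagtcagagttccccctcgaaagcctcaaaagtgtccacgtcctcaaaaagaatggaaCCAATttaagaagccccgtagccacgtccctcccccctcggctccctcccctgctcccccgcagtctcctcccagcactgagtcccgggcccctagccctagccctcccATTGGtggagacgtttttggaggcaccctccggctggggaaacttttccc
Col3a1: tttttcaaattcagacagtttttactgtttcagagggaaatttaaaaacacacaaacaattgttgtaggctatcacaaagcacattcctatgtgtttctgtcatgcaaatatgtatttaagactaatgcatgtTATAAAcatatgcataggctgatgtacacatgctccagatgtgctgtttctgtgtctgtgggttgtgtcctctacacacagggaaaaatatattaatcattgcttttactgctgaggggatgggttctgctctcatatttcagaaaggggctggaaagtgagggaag
The Col1a2 window held 2 CCAAT boxes, at -109 on the plus strand and at 1 on the minus strand, where 1 is the first base of the transcript. It also held 2 Sp1 boxes, at -205 and -188, and no TATAAA. The Col3a1 window held TATAAA at -117, and neither of the other motifs. Of 32851 mouse promoter windows of this length, 37.4% held CCAAT, 13.6% held TATAAA and 35.7% held GGGCGG. Col6a1 and Postn were the other genes of the 8 matched to this table. The Col6a1 window held none of the 3 motifs, and of 2 Postn starts one window held TATAAA at -26 and the other CCAAT at 25 on the minus strand.

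Per length of transcript, Fn1 was the highest of the 8 genes and Lum the lowest. Over the 6 libraries, mean FPKM (fragments per kilobase of transcript, scaled to library size, as deposited) was 7.87 ± 1.20 for Fn1 and 3.05 ± 0.550 for Col3a1. It was 2.08 ± 0.352 for Col1a2, 0.982 ± 0.267 for Dcn, 0.901 ± 0.162 for Col1a1 and 0.896 ± 0.0776 for Postn (SD, n = 6). Col6a1 followed at 0.282 ± 0.0567 FPKM and Lum at 0.0322 ± 0.0188 FPKM. The ranges of Fn1 and Col3a1 did not overlap, nor did those of Col1a2 and Dcn, of Postn and Col6a1, or of Col6a1 and Lum. Col3a1 was above Col1a2 in 6 of 6 libraries, at 1.24 to 1.65 times its FPKM. Dcn, Col1a1 and Postn could not be ordered: Dcn was above Col1a1 in 4 of 6 libraries, and Col1a1 above Postn in 3 of 6. Among 26937 genes with an FPKM above 0, 77.1% lay below Fn1, 62.1% below Col3a1, 49.9% below Col1a1 and 23.3% below Lum.

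None of the 8 genes changed past the threshold with the knockdown. Of 17439 genes that passed a filter on low counts, 0 (0%) passed an adjusted p of 0.05 by the quasi-likelihood test of edgeR. Of the 8 genes 7 were tested, since the filter removed Lum, and 0 of these 7 passed. In edgeR 191 genes (1.1%) had an unadjusted p under 0.05, and 2 of the 7 were among them, Col1a1 on the higher side and Fn1 on the lower side. For 907 genes (5.2%) all libraries of one group lay above all of the other, and for 0 of the 7. The log2 fold change was above 0 for 6 of the 7, with a median of 0.15, against 48.1% of all genes tested and a median of -0.01. In bulk libraries such as these, fewer cells of a type and less RNA per cell cannot be told apart.

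**Figure D1:**
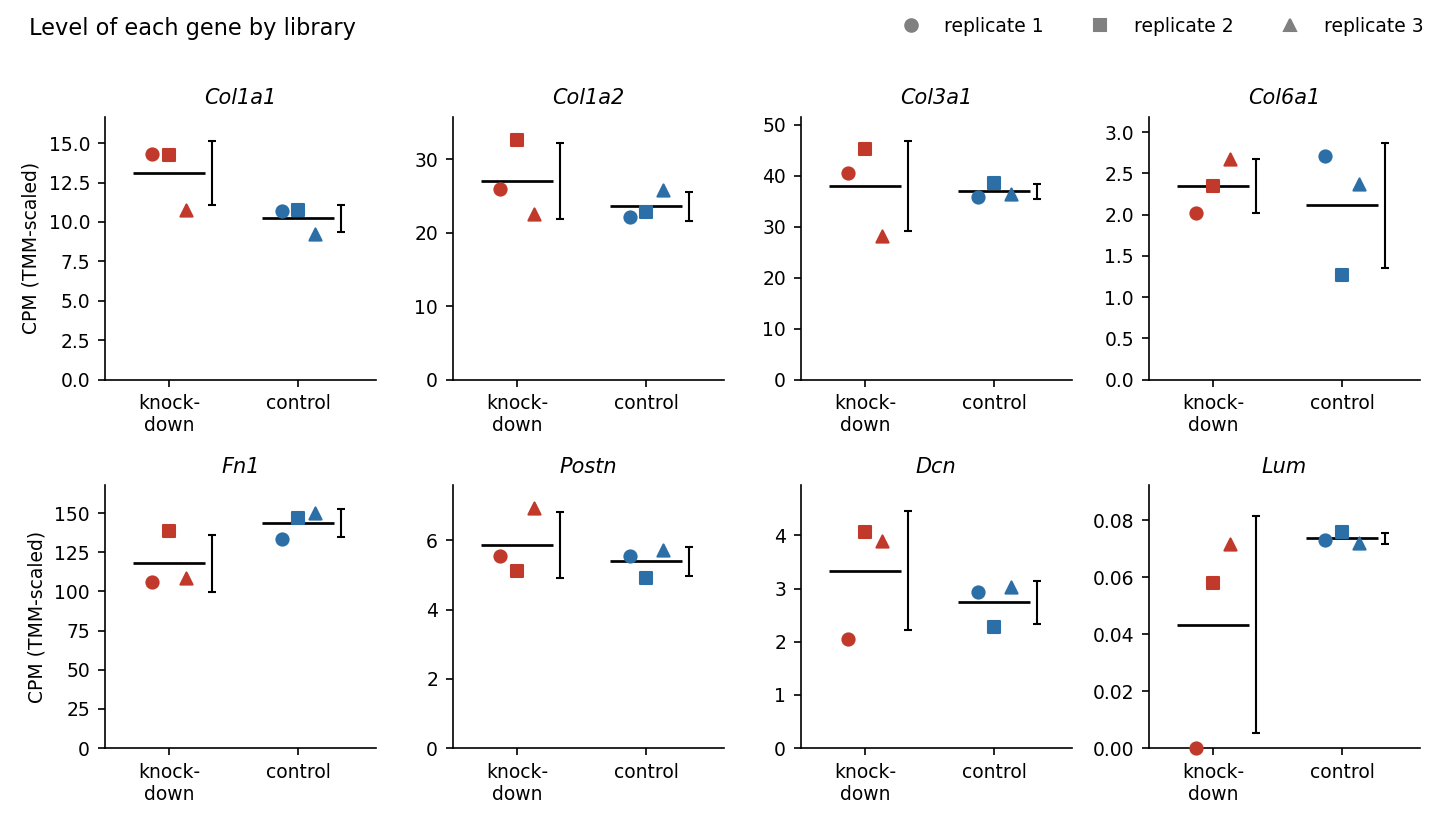
Level of each of the 8 genes in CPM (TMM-scaled), knockdown left and control right. Points are libraries, marked by replicate number, horizontal lines are group means and vertical bars the SD of 3 libraries. For Col1a1 the lowest knockdown library, 10.7 CPM, falls among the controls, and for Fn1 the highest knockdown library, 139 CPM, lies above the lowest control, 133 CPM.

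Col1a1, the gene of the main chain of collagen I (chromosome 11, 94936224 to 94953042), was at 14.3, 14.2 and 10.7 CPM in knockdown replicates 1, 2 and 3. It was at 10.7, 10.8 and 9.24 CPM in control replicates 1, 2 and 3. Knockdown replicates 1 and 2 lay above every control library, and knockdown replicate 3 lay within the control range. The means were 13.1 ± 2.05 CPM in the knockdown and 10.2 ± 0.856 CPM in the control (SD, n = 3 each). The fold change was 1.28, with a 95% interval from 1.01 to 1.61. In edgeR's test the unadjusted p was 0.0411 and the adjusted p 1.00, so the difference did not pass.

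Col1a2, the gene of the partner chain of collagen I (chromosome 6, 4505618 to 4541543), was at 26.0, 32.6 and 22.5 CPM in the knockdown libraries and at 22.1, 22.8 and 25.9 CPM in the control libraries. Knockdown replicate 2 was the highest library and the rest were mixed between the groups. Its log2 fold change was 0.20 with an SE of 0.14 and a 95% interval from -0.12 to 0.51. Col3a1 (chromosome 1, 45311538 to 45349706) was at 40.4, 45.3 and 28.2 CPM in the knockdown libraries and at 35.7, 38.6 and 36.5 CPM in the control libraries. The knockdown libraries held both the highest and the lowest level, so the spread within the knockdown, an SD of 8.82 CPM against 1.47 CPM in the control, was wider than the gap between the means of 38.0 and 36.9 CPM. The log2 fold change of Col3a1 was 0.04 (95% interval -0.31 to 0.39). It turned to -0.11 when knockdown replicate 2 was left out and to -0.00889 when knockdown replicate 1 was.

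Both chains of collagen I could be compared within a library. The ratio of Col1a1 to Col1a2 in FPKM was 0.551, 0.386 and 0.441 in knockdown replicates 1, 2 and 3, and 0.440, 0.446 and 0.349 in control replicates 1, 2 and 3. In every library the Col1a1 level per length was thus below that of Col1a2. The log2 ratio averaged -1.14 ± 0.259 in the knockdown and -1.29 ± 0.199 in the control (SD, n = 3 each). The difference of 0.15 had a two-sided exact permutation p of 0.5, where 3 against 3 libraries allow no p below 0.1. From the counts in place of FPKM the difference was 0.16. Without knockdown replicate 1 it was 0.01, and without control replicate 3 it was 0.04.

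Col6a1 encodes the α1 chain of collagen VI, a beaded microfibril next to cells (chromosome 10, 76708792 to 76726044). It was at 2.02, 2.35 and 2.68 CPM in the knockdown libraries and at 2.71, 1.26 and 2.37 CPM in the control libraries. Control replicate 2 was the lowest library by CPM, with 50 counts, and control replicate 1 the highest, with 111. The log2 fold change was 0.15 with an SE of 0.30 and a 95% interval from -0.51 to 0.82, and it was -0.10 without control replicate 2. The partner chains of collagen VI stood at similar levels per length, 0.366 and 0.429 FPKM for Col6a2 and 0.259 and 0.245 FPKM for Col6a3 (means of knockdown and control), beside 0.301 and 0.264 FPKM for Col6a1.

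Fn1 (chromosome 1, 71585473 to 71653280) was the one gene of the 7 whose estimate lay below 0. It was at 106, 139 and 109 CPM in knockdown replicates 1, 2 and 3, against 133, 147 and 150 CPM in control replicates 1, 2 and 3. Knockdown replicates 1 and 3 lay below every control library, and knockdown replicate 2 lay above control replicate 1. The means were 118 ± 18.2 CPM in the knockdown and 144 ± 8.94 CPM in the control (SD, n = 3 each). The fold change was 0.82, with a 95% interval from 0.685 to 0.982. In edgeR's test the unadjusted p was 0.0336 and the adjusted p 1.00, so this difference did not pass either. Leaving out control replicate 2, or control replicate 3, left neither Col1a1 nor Fn1 with an unadjusted p under 0.05 in edgeR.

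Postn encodes periostin, a matrix protein that binds collagen and fibronectin and promotes collagen crosslinking (chromosome 3, 54359267 to 54391041). Its level was 5.56, 5.11 and 6.93 CPM in the knockdown libraries and 5.54, 4.93 and 5.72 CPM in the control libraries. Knockdown replicate 3 was the highest library, and the other knockdown libraries lay within the control range. The log2 fold change was 0.12 with an SE of 0.18, and it was -0.00397 without knockdown replicate 3.

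Dcn, the gene of decorin, which binds collagen fibrils and TGF-beta, lies next to Lum in the genome (chromosome 10, 97479500 to 97518163). It was at 2.04, 4.06 and 3.89 CPM in knockdown replicates 1, 2 and 3, and at 2.93, 2.27 and 3.02 CPM in control replicates 1, 2 and 3. Knockdown replicate 1 was the lowest of all libraries, while knockdown replicates 2 and 3 were the highest. The log2 fold change was 0.28 with an SE of 0.28 and a 95% interval from -0.34 to 0.90. Lum, the gene of lumican, which governs fibril thickness (chromosome 10, 97565501 to 97572703), had 0, 2 and 3 counts in knockdown replicates 1, 2 and 3, and 3, 3 and 2 counts in control replicates 1, 2 and 3. All 6 values are at or under a floor of 3 counts per library, the upper limit that a count of 0 allows, which is 0.0689 to 0.108 CPM at these depths. A fall or a small change in Lum was therefore not detectable at this depth.

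**Figure D2:**
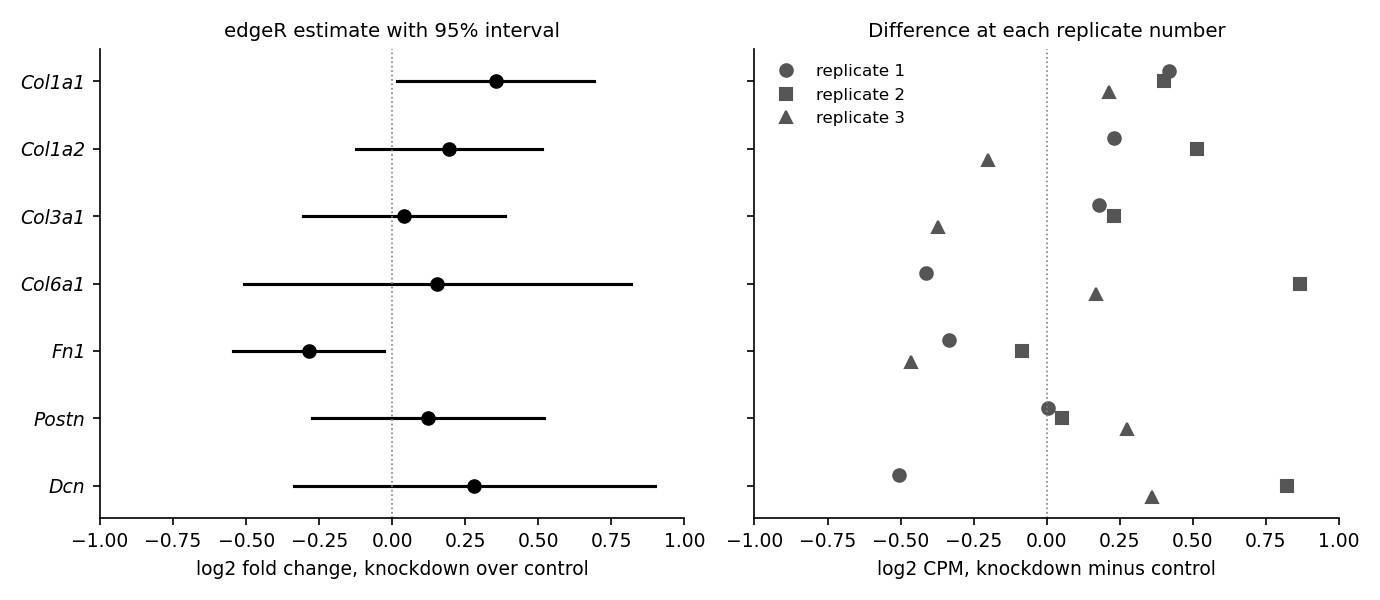
Left, log2 fold change, knockdown over control, of the 7 genes tested, with the 95% interval of edgeR; right, the difference in log2 CPM between knockdown and control libraries of the same replicate number. The intervals of Col1a1 and Fn1 lie on one side of 0 and the other 5 span it, while Col6a1 and Dcn range on the right from -0.41 to 0.87 and from -0.51 to 0.82.

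Set side by side by replicate number, which the labels do not tie to a shared culture, the 8 genes differed in which libraries were high. Col1a1 was higher in the knockdown by 0.42, 0.40 and 0.21 log2 units at numbers 1, 2 and 3, and Fn1 was lower at each, by -0.33, -0.08 and -0.47. Col1a2 had 0.23, 0.51 and -0.20, and Col3a1 had 0.18, 0.23 and -0.37, so both were higher at numbers 1 and 2 and lower at 3. Col6a1 had -0.41, 0.87 and 0.17, and Dcn had -0.51, 0.82 and 0.36, so both were lower at number 1 and higher at 2 and 3. Postn differed by 0.27 at number 3 and by at most 0.05 at the others.

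Within a library, the 3 fibrillar collagen genes and Fn1 were set against each other after their values had been seen, so what follows is a description with no test. Col1a1, Col1a2 and Col3a1 together came to 80.7, 92.1 and 61.4 CPM in knockdown replicates 1, 2 and 3, and to 68.5, 72.1 and 71.6 CPM in control replicates 1, 2 and 3. The ratio of this sum to Fn1 was 0.763, 0.664 and 0.564 in the knockdown libraries, against 0.514, 0.490 and 0.476 in the control libraries. Every knockdown ratio lay above every control ratio, although neither the collagen sum nor Fn1 separated the groups. Among single genes tested, the groups did not overlap for 5.2%, and the share among ratios was not computed. The ratio also sets Col1a1, higher in the knockdown, against Fn1, lower in it. The mean ratio was 0.664 ± 0.0994 in the knockdown and 0.493 ± 0.0189 in the control (SD, n = 3 each). In FPKM it was 0.883 ± 0.108 in the knockdown and 0.670 ± 0.0119 in the control, again with no overlap. Fn1 made up 53.9%, 57.2% and 59.2% of the summed CPM of the 8 genes in the knockdown libraries and 62.6%, 64.6% and 64.5% in the control libraries. This share is not a further result, since Fn1 and the 3 collagen genes make up most of that sum.

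**Figure D3:**
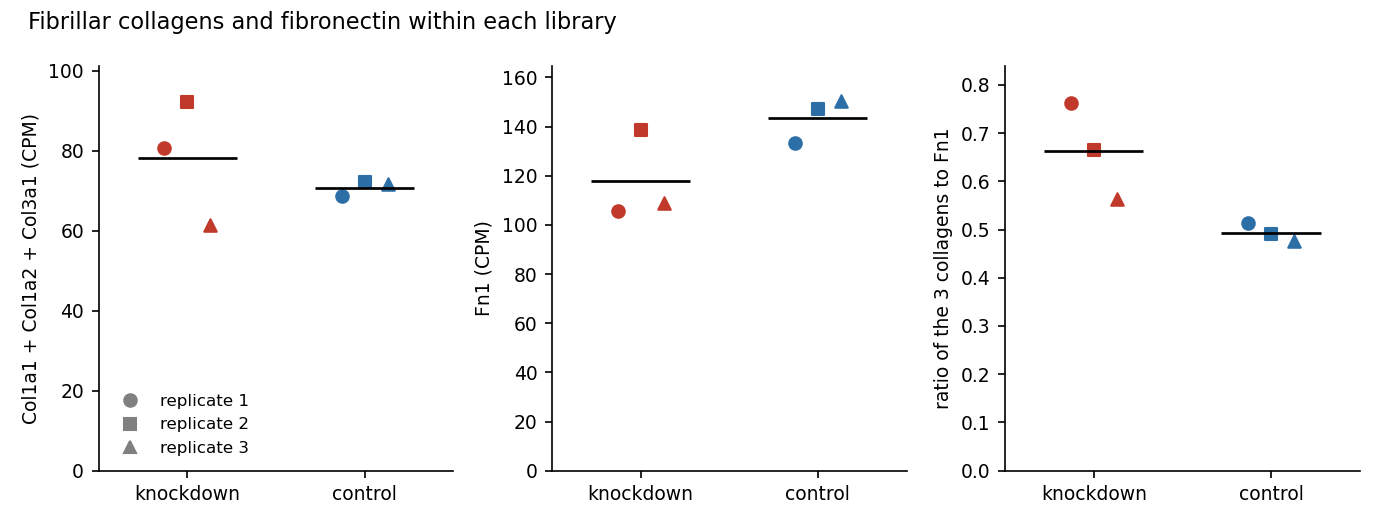
Summed CPM of Col1a1, Col1a2 and Col3a1 (left), CPM of Fn1 (middle) and their ratio (right) in each library, knockdown left and control right in each panel; lines are group means. The sums and Fn1 overlap between the groups, and the 3 knockdown ratios, 0.564 to 0.763, lie above the 3 control ratios, 0.476 to 0.514.

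The 8 genes did not all share one pattern over the 6 libraries. The Pearson correlation of a gene's log2 CPM with the mean of the other 7 was 0.84 for Dcn and 0.34 for Col1a2. It was between -0.25, for Col1a1, and 0.28, for Col6a1, for the remaining 6, each over 6 libraries that share their depth and composition with every gene. Except for Lum itself, each gene was set against a mean that includes Lum, the gene of fewest counts. In knockdown replicate 1 the mean deviation of log2 CPM was -0.18 over the 8 genes and -0.06 over the 7 tested. These correlations were not computed without Lum, so their size and sign are uncertain. Of 14495 other genes that averaged at least 1 CPM, the 10 most like the mean of the 8 were Gatb, Nr1d2, Mettl1, Smim1, Zfp72, 9330102E08Rik, Ttc29, Rnf144b, Col22a1 and Adamtsl2. Their correlations ran from 0.986 for Gatb to 0.944 for Adamtsl2. With Lum, the gene of fewest counts, left out of the mean, 0 of these 10 were among the 10 most alike.

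Among 44 collagen chain genes, the 4 of this set ranged from the fifth to the 29th by level per length. Col4a1 and Col4a2, the chains of basement membrane collagen IV, ranked 1 and 2 at 12.4 and 10.9 FPKM (means of 6 libraries), followed by Col2a1, a fibrillar chain of cartilage, at 5.61 FPKM. Col3a1 ranked 5, Col1a2 10, Col1a1 21 and Col6a1 29. The ranges of Col4a1 and Col3a1 did not overlap, at 10.6 to 13.8 FPKM and 2.27 to 3.87 FPKM.

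**Figure D4:**
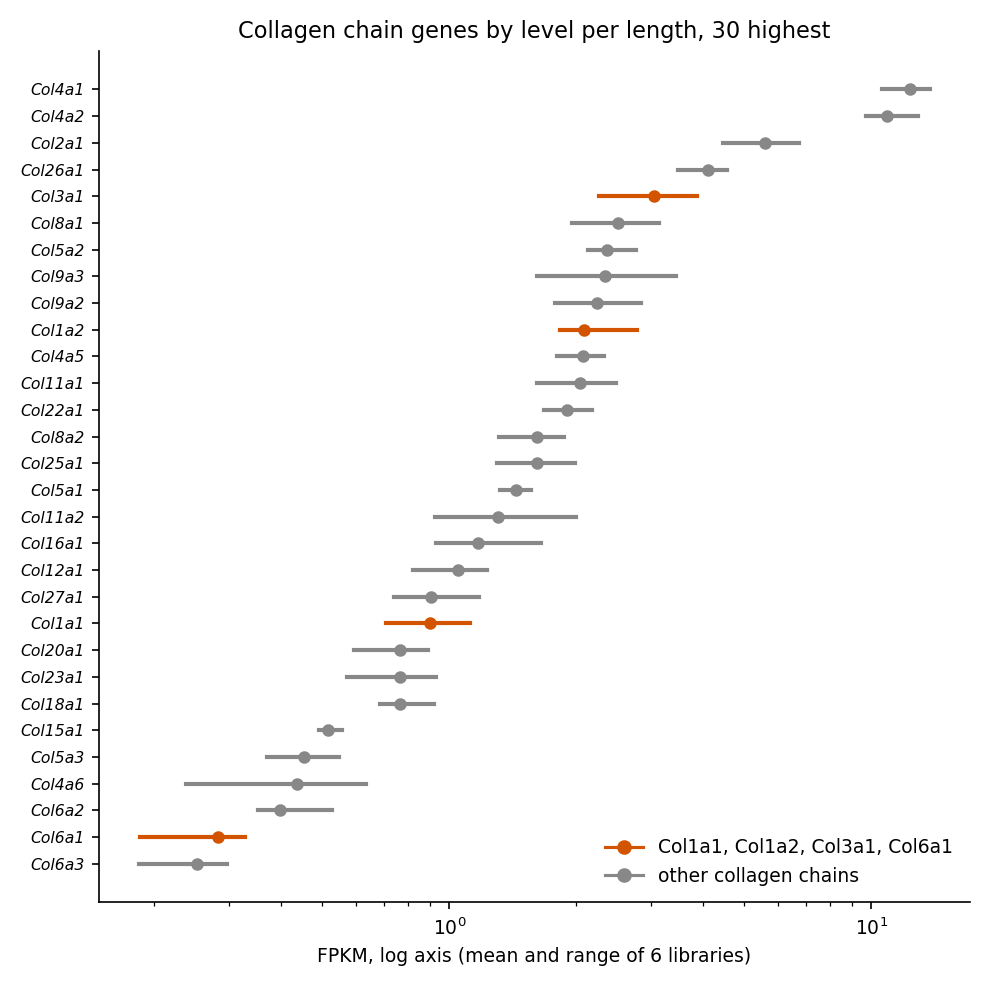
Mean FPKM over 6 libraries, on a log axis, of the 30 collagen chain genes with the highest levels, with bars from the lowest to the highest library. Col3a1, Col1a2, Col1a1 and Col6a1 are in orange, at ranks 5, 10, 21 and 29, below Col4a1 and Col4a2 at 12.4 and 10.9 FPKM.

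The other collagen chains did not change with the knockdown past the threshold. Of 40 genes, 36 were tested, 16 were above 0 and 20 below, 0 passed in edgeR, and the median log2 fold change was -0.02. Col8a1, which encodes a short-chain collagen of vessels and other tissues, was at 17.1, 21.2 and 20.2 CPM in the knockdown libraries and at 24.1, 28.3 and 21.8 CPM in the control libraries. All its knockdown libraries lay below all control libraries, at a log2 fold change of -0.35 ± 0.13 (SE). Col14a1, a collagen that binds fibril surfaces, had -0.58 ± 0.34, or -0.26 without control replicate 3, and Col20a1 had -0.24 ± 0.16. Col4a1 was at 183 ± 18.3 CPM in the knockdown and 185 ± 4.16 CPM in the control (SD, n = 3 each).

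Genes that make, fold, export and crosslink collagen were spread around 0. Of 35 tested, 12 were above and 23 below, 0 passed in edgeR, and the median was -0.02. Sec23a, a coat protein of the vesicles that carry procollagen out of the endoplasmic reticulum, was at 147, 149 and 135 CPM in the knockdown libraries and 170, 166 and 177 CPM in the control libraries. Its groups did not overlap, and its log2 fold change was -0.25 ± 0.09 (SE). P4ha3, a subunit of prolyl 4-hydroxylase, which stabilises the collagen helix, had 0.32 ± 0.14, and Pcolce, which enhances the cleavage of procollagen ends, had 0.39 ± 0.21. P4hb, the other subunit of that enzyme, was at 247 ± 18.9 CPM in the knockdown and 247 ± 29.4 CPM in the control (SD, n = 3 each).

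Other matrix proteins and small proteoglycans had 19 genes above 0 and 15 below among 34 tested, 0 passing in edgeR, and a median of 0.07. Tgfbi, a collagen-binding protein named for its induction by TGF-beta, was at 0.961 ± 0.253 CPM in the knockdown and 0.459 ± 0.313 CPM in the control (SD, n = 3 each), a log2 fold change of 1.00 ± 0.51 (SE), or 0.60 without control replicate 3. Igfbp4, an insulin-like growth factor binding protein, had 0.27 ± 0.15, and Prelp, a leucine-rich proteoglycan, had -0.22 ± 0.12. The receptors of collagen and fibronectin had 10 above and 13 below of 23 tested, 0 passing in edgeR, and a median of -0.04. Itga5, the α subunit of the main fibronectin receptor, was at 5.74, 5.86 and 5.26 CPM in the knockdown libraries and 6.37, 6.32 and 6.37 CPM in the control libraries. Its groups did not overlap, at a log2 fold change of -0.18 ± 0.16 (SE). The collagen receptors Itga11 and Ddr2 had -0.38 ± 0.25 and -0.18 ± 0.15.

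Matrix proteases and their inhibitors had 5 genes above 0 and 17 below of 22 tested, 0 passing in edgeR, and a median of -0.04. Fap, a fibroblast surface protease, was at 0.225 ± 0.146 CPM in the knockdown and 0.555 ± 0.176 CPM in the control (SD, n = 3 each). Its groups did not overlap, and its log2 fold change of -1.27 ± 0.52 (SE) rests on 28 counts in the knockdown and 61 in the control. Mmp2, a gelatinase, had 0.22 ± 0.13, and Mmp16, a membrane-bound protease, had -0.15 ± 0.13. TGF-beta is a main driver of collagen genes in fibroblasts. Its signalling genes and targets had 18 above and 12 below of 30 tested, 0 passing in edgeR, and a median of 0.04. Id1, a target of the BMP branch of this pathway, had 0.47 ± 0.21, with 7.10, 5.16 and 5.78 CPM in the knockdown libraries and 4.39, 3.54 and 5.18 CPM in the control libraries. The ligand Tgfb3 had -0.28 ± 0.17 and Tgfb1i1, a focal adhesion protein, had -0.20 ± 0.15.

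**Figure D5:**
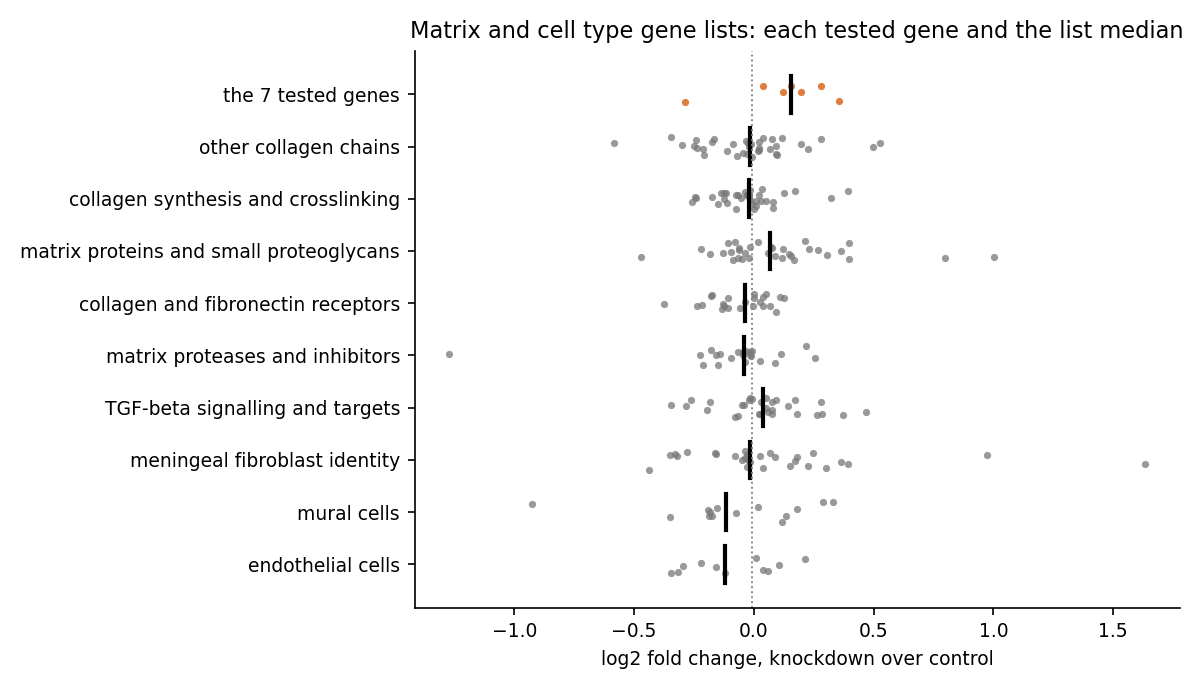
Log2 fold change, knockdown over control, of each tested gene in the 7 tested genes of the set (orange) and in 9 related lists (grey). Black bars are list medians and the dotted line is the median of all genes tested, -0.01; list medians run from 0.15 for the 7 genes to -0.12 for endothelial cells.

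Genes that mark meningeal fibroblasts ranged widely in level. Of 38 genes in the list, 17 averaged under 1 CPM over the 6 libraries, 11 between 1 and 10 CPM, and 10 at least 10 CPM, among them Nnat, Vim, Pdgfra and Aldh1a1, which neural cells express too. Igf2 was also among these 10, and expression of the rest in neural cells was not examined. Of the 38, 29 were tested, 14 were above 0 and 15 below, 0 passed in edgeR, and the median was -0.02. Foxc1, a transcription factor the meninges need to form, was at 4.82, 5.54 and 3.08 CPM in the knockdown libraries and 4.20, 5.51 and 4.06 CPM in the control libraries. Tbx18, a transcription factor of meningeal and mural cells, was at 0.896 to 1.39 CPM in the knockdown and 0.683 to 1.01 CPM in the control. Crabp2, which carries retinoic acid, was at 0.712 to 0.841 CPM in the knockdown and 0.556 to 0.854 CPM in the control. Slc6a13, a GABA transporter of the leptomeninges, was at 0.573 to 1.13 CPM in the knockdown and 0.253 to 1.22 CPM in the control, and Tcf21 had no count. Foxc1, Tbx18, Crabp2, Slc6a13, Tcf21, Vim, Pdgfra and Aldh1a1 were picked from the list after their values were seen. These levels do not settle whether the cultures held meningeal fibroblasts, so the 8 genes are called matrix genes here, and the cells that made them were not identified.

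Of the 3 meningeal genes with the smallest p, Wnt6 and Twist2 were low and Igf2 was not. Wnt6, a secreted signal, was at 0.299, 0.522 and 0.263 CPM in the knockdown libraries and 0.0732, 0.101 and 0.180 CPM in the control libraries. Its groups did not overlap, and its log2 fold change of 1.63 ± 0.57 (SE) rests on 42 counts in the knockdown and 12 in the control. Twist2, a transcription factor of mesenchyme, was at 0.413, 0.493 and 0.526 CPM in the knockdown libraries and 0.122, 0.354 and 0.252 CPM in the control libraries, also with no overlap, at 0.97 ± 0.48. The growth factor gene Igf2 was at 30.5 ± 3.81 CPM in the knockdown and 25.7 ± 3.34 CPM in the control (SD, n = 3 each). Its log2 fold change was 0.25 ± 0.14 (SE). None of the 3 passed in edgeR's test, where each had an adjusted p of 1.00. Nnat, which took the most counts of the list and is also a neuronal gene, was at 2065 ± 400 CPM in the knockdown and 2027 ± 140 CPM in the control (SD, n = 3 each).

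Markers of other cells that make matrix were present in both groups. The summed level of 16 mural cell markers was 313 to 362 CPM in the knockdown and 307 to 389 CPM in the control, with Vtn taking the most counts, and that of 18 endothelial markers was 73.7 to 82.1 CPM in the knockdown and 77.0 to 84.4 CPM in the control, with Podxl taking the most. Sox17 and Ly6c1 of the endothelial list had no count in any library, and their FPKM was 0 too. The 13 cartilage and bone markers summed to 123 to 157 CPM in the knockdown and 130 to 160 CPM in the control, with Sox9 first. Most of this sum came from Sox9, at means of 68.3 and 68.7 CPM in knockdown and control, and Col2a1, at 67.3 and 68.4 CPM. Only 5 of the 13 genes passed the filter on low counts, so the sum does not show that cartilage or bone cells were present. In the oligodendrocyte list, which took most counts for Mbp, 0 of 14 tested genes were above 0, against 48.1% of all genes tested. In edgeR 0 of them passed, and the median was -0.32. Their sums were 477 to 590 CPM in the knockdown and 485 to 762 CPM in the control, with the lowest sum of each group in replicate 2. Dividing cell genes, Mki67 first, had 2 above 0 and 13 below of 15 tested, 0 passing in edgeR, and a median of -0.24. Their sums were 321 to 379 CPM in the knockdown and 320 to 494 CPM in the control. Of the microglia and macrophage list 2 genes were above 0 and 12 below of 14 tested, 0 passing in edgeR, with a median of -0.27 and sums of 79.4 to 91.4 CPM in the knockdown and 84.1 to 116 CPM in the control. The part of these cell types in the values of Fn1 and Col1a1 was not tested.

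The labels give the cell type as dopamine neurons. The dopamine list summed to 818 to 975 CPM in the knockdown and 837 to 967 CPM in the control, with En2 taking the most counts. Aldh1a1 is in this list and in the meningeal list, so the sum does not give the share of dopamine neurons. The neuron list, with Tubb3 first, summed to 8313 to 9505 CPM in the knockdown and 8397 to 9290 CPM in the control. Radial glia and astrocyte genes, with Fabp7 first, summed to 1835 to 2197 CPM in the knockdown and 1707 to 2146 CPM in the control. The libraries thus held RNA with markers of several cell types. For the muscle list the sum followed Ttn, the gene of the giant protein titin, which was at 9.44, 134 and 12.8 CPM in the knockdown libraries and 12.2, 49.1 and 56.8 CPM in the control libraries, while the muscle factors Myod1, Myog, Myf5 and Myf6 had at most 0.029 CPM in any library.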

How the data were processed

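Ribosomal RNA-depleted, stranded RNA libraries with paired reads of 150 bases were made from 3 knockdown and 3 control samples, per the labels' protocols. The deposited counts are whole numbers per gene, 1 table per library, and the deposited FPKM tables have Cufflinks column names, per the file headers. The submitters' processing notes name GRCm38 (mm10), bcl2fastq 2.20, Cufflinks 2.2.1 and DESeq2. The aligner, counter and strand option were not given in the sources used here, so reads of overlapping or antisense genes may be shared.

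From the counts, the quasi-likelihood test of edgeR 4.0.16 under R 4.3.3 was fitted with the group alone on 17439 genes that passed filterByExpr, with TMM scaling. P was adjusted over all of them by the Benjamini-Hochberg method at a threshold of 0.05, and intervals are at 95%. The Col1a1 to Col1a2 ratio was tested by exact permutation. Log2 CPM carry a prior count of 2. Chi-square divided by its degrees of freedom was 8.94 to 91.4 over all pairs of the 6 libraries, and no pair was treated as one library. Floors cover counting error only. The fit was tested on simulated data.

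The 8 genes and the related lists, 404 entries of which 404 were matched (2 by synonym), were chosen with earlier results of these data known. Named were the 8 genes, Rmst, up to 3 genes of smallest p and the gene with the most CPM of each matrix, signalling and meningeal list, the gene with the most CPM of each other cell type list, and the 10 genes most like the 8; some of these are not reported here. Motifs were searched by exact match. Alternatives were other scalings, no filter, DESeq2 1.42.0, the replicate block, each library left out, and limma 3.58.1 on log2(FPKM + 0.1) or log2(FPKM + 1), over genes that averaged 0.5 FPKM or more, or over all genes.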

Additional observations from a re-analysis of the deposited data

How the results depend on the processing

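Unfiltered, edgeR called 11 genes, of which 5 were higher and 6 lower in the knockdown, and DESeq2 called 1, against 0 under the design used. Neither held one of the 8 matrix genes, and 0 of them was called under any of the 14 alternatives. The median log2 fold change of the 7 tested genes stayed between 0.08 and 0.25, taken over 6 of them in the 2 limma fits with a filter on FPKM. Fn1 stayed below 0, at -0.42 to -0.21, and Col1a1 (0.15 to 0.49), Col1a2 (0.04 to 0.32) and Dcn (0.12 to 0.54) above it. Col3a1 ran from -0.11 to 0.22, turning to -0.00889 and -0.11 with knockdown replicates 1 and 2 left out. Col6a1 ran from -0.10 to 0.39, turning without control replicate 2, and Postn from -0.00397 to 0.21, turning without knockdown replicate 3; the cause was not tested. At an unadjusted p under 0.05, limma on FPKM had 0 of 6 in each fit with a filter and 0 of 8 without. Of 21 related genes given with a fold change, 15 moved by over 1.5 times with 1 library left out, and 0 changed sign. Their ranges were -0.74 to -0.26 for Col14a1, -0.42 to -0.14 for Col20a1, -0.42 to -0.23 for Col8a1, -0.28 to -0.08 for Ddr2, -1.94 to -0.96 for Fap and 0.19 to 0.40 for Igfbp4. They were -0.54 to -0.21 for Itga11, -0.24 to -0.04 for Mmp16, 0.19 to 0.45 for P4ha3, 0.26 to 0.54 for Pcolce and -0.31 to -0.12 for Prelp. For Tgfb1i1, Tgfb3, Tgfbi and Twist2 they were -0.32 to -0.13, -0.39 to -0.14, 0.60 to 1.44 and 0.63 to 1.40.

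The replicate numbers were not taken as pairs, since deviations from the group means correlated by 0.318, 0.350 and 0.0502 between libraries numbered 1, 2 and 3, over 14501 genes. Knockdown replicate 3 correlated more with control replicate 1 (0.0908), and control replicate 3 more with knockdown replicate 2 (0.0997), than with each other. By chi-square per degree of freedom, knockdown replicates 2 and 3 were closest to control replicates 2 (8.94) and 3 (40.3). Knockdown replicate 1 was closest to control replicate 3 (29.2), with control replicate 1 next (29.8). Zic1, given below, was close within each number, and whether the numbers name shared cultures was not settled. With the number as a block edgeR called 0 genes, with 258 at an unadjusted p under 0.05. This fit gave 0.35 for Col1a1 and -0.29 for Fn1, at unadjusted p of 0.0210 and 0.0158 in edgeR, and neither passed after adjustment. With the same block the difference in the log2 ratio of Col1a1 to Col1a2 was 0.15. Differences between replicate numbers were called in 27 of 17439 genes by edgeR, in 741 of 28463 with no filter and in 225 of 16323 by DESeq2. With 1 library left out, the calls ran from 45 of 17857 genes to 524 of 17786. Of all these, 0 were among the 8 genes, which at such small shares says little about the 8. With 3 libraries a group, the depth of 5 counts in the knockdown and 8 in the control limits Lum.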

Other observations

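Col11a2, which encodes a chain of cartilage collagen XI, had 0 counts in all 6 count tables, yet its deposited FPKM was 1.02 ± 0.0858 in the knockdown and 1.58 ± 0.425 in the control (SD, n = 3 each). It ranked 17 among the 44 collagen chains by FPKM. Sdc3, a cell surface proteoglycan gene of the receptor list, had 28 counts in all, yet 53.9 FPKM in the knockdown and 55.1 FPKM in the control. Both are among 18 of 387 related genes that the tables list again as copies on alternate sequences, and of these 18 genes 7 had no count on any copy, Cldn5 and Matn1 among them. A low or absent count of such a gene is therefore uncertain. None of the 8 matrix genes has a copy, and the cause of the gap was not tested.

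Zic1, a transcription factor of the meninges and of the dorsal hindbrain, was at 39.4, 16.1 and 2.08 CPM in knockdown replicates 1, 2 and 3, and at 42.8, 15.3 and 2.19 CPM in control replicates 1, 2 and 3. Its log2 fold change was -0.08 ± 0.90 (SE). Libraries of the same number were close to each other in both groups, while the numbers differed widely; Zic1 was picked after its values were seen.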
